A study of Mus musculus with 46 samples.

Results

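The clustered protocadherins are 58 genes that lie side by side on mouse chromosome 18 in an alpha, a beta and a gamma cluster. They were taken by gene symbol, as the rows named Pcdha, Pcdhac, Pcdhb, Pcdhga, Pcdhgb or Pcdhgc followed by a number, and made up 58 of the 52636 genes in the table of the study. The alpha cluster gave 14 members, because 2 rows with different identifiers are both named Pcdha11, and the beta and gamma clusters gave 22 each. On the GRCm38 (mm10) assembly the first member starts at base 36930184 of chromosome 18 and the last ends at base 37841873, all on the plus strand, and all 58 identifiers were found in the GENCODE annotation. Levels are given in TPM, a gene's share of all transcripts in a library scaled to a fixed total and corrected for gene length.

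The study asked how rearing changes the developing hippocampus. Left hippocampi of BALB/cByj mouse pups were collected on postnatal day 17, and each of the 46 RNA libraries came from 1 pup. Limited bedding (LB) litters had little corncob bedding and no nesting material and gave 16 pups (7 male, 9 female). The labels describe the second group only as raised under unpredictable postnatal stress (UPS), with 15 pups (8 male, 7 female). Control (CTL) litters had ample bedding and nesting material and gave 15 pups (6 male, 9 female). The study's methods give several litters for the LB and CTL pups and do not name the UPS pups, whose number of litters is unknown here. No label says which pup came from which litter. Pups therefore entered the tests as independent samples, and any likeness of littermates makes the p-values too low. These are libraries of whole tissue, in which fewer cells of a type and less RNA per cell cannot be told apart.

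Clustered protocadherins are adhesion proteins of neurons. In the alpha and gamma clusters each member contributes its own large first exon, which is spliced to constant exons shared by the whole cluster, so the proteins differ outside the cell and share one cytoplasmic end. The beta genes carry no such constant exons. A neuron switches on a few alternate members, picked by promoter choice with the help of CTCF, cohesin and DNA methylation, and the combination on its surface lets its branches recognise and avoid one another. The C-type members (Pcdhac1, Pcdhac2, Pcdhgc3, Pcdhgc4 and Pcdhgc5) stand at the far end of the alpha and gamma clusters and are regulated differently from the alternate ones.

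The shared exons limit what a TPM value of a single member can say. Of the annotated exonic bases, 2860 are common to all alpha members and 2116 to all gamma members, and between 27.8% (Pcdhgc5) and 66.8% (Pcdhga4) of the bases of a gamma member overlap other members. A read that lies wholly within the exons common to a cluster does not by itself show which first exon was used. In the beta cluster only Pcdhb21 and Pcdhb22 overlap, over 455 bases, so the values of the other 20 rest on exons of their own, except that Pcdhb12 overlaps the gene Gm37446 and has 1107 of its 3034 bases free of it. Pcdhga10 has no exonic base that is free of every other annotated gene, and Pcdha4 has 404 of 5768. TPM keeps no read depth, so the number of reads behind each value is unknown.

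Before the members are described, the libraries that stood apart are given. The median Pearson correlation of log2(TPM + 1) with the other libraries was 0.937 for UPS female 2 and 0.973 or more for the rest. UPS female 1 carries LB in another label beside its UPS title and was kept as UPS. CTL female 9 and LB female 9 carry an earlier number in the table header written the way the numbers of males are. The group sizes in the study's methods also fit these pups being male, and they were kept as female as the labels have it. The number of genes detected per library ran from 21150 to 24707, and mitochondrial transcripts took 9.52% to 14.2% of the TPM. The 6 markers of hippocampal excitatory neurons, none of them at 0 throughout, summed to 3175 to 3673 TPM in LB, 3266 to 4039 TPM in UPS and 3273 to 4009 TPM in CTL pups.

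Together the 58 members reached 507 to 736 TPM in a pup, and the gamma cluster held most of it. The gamma sum averaged 386 ± 44.1 TPM in LB pups, 380 ± 39.8 TPM in UPS pups and 373 ± 39.3 TPM in CTL pups (SD, n = 16, 15 and 15). The beta sum averaged 135 ± 12.2 TPM in LB, 140 ± 11.6 TPM in UPS and 125 ± 10.9 TPM in CTL pups. The alpha sum was the smallest, at 95.9 ± 9.45 TPM in LB, 92.9 ± 8.84 TPM in UPS and 82.3 ± 6.18 TPM in CTL pups. These sums are descriptions and were not tested, since the members were picked as a family.

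**Figure D1:**
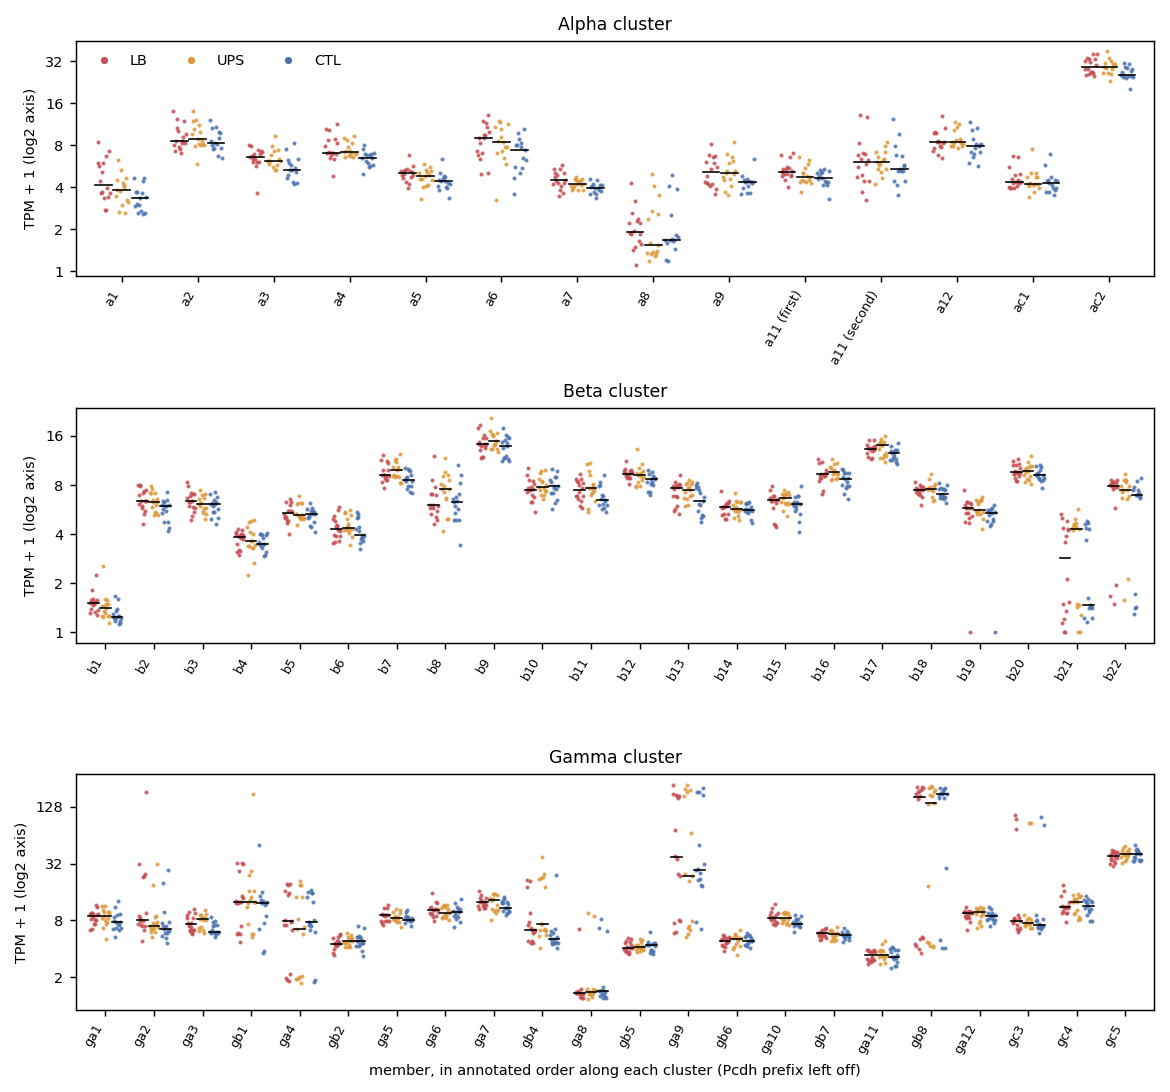
TPM + 1 of every member in each of the 46 pups (points, log2 axis), in annotated order along the alpha, beta and gamma clusters, for LB, UPS and CTL; black lines are group medians. Pcdhac2 and Pcdhgc5 stand above most members in every pup, and several gamma members, Pcdhb21 and Pcdhb22 split into separate levels.

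Within the alpha cluster 1 member stood out. Pcdhac2, a C-type member, had the highest mean (29.0 ± 3.80 TPM in LB, 28.5 ± 3.51 TPM in UPS and 25.5 ± 2.86 TPM in CTL pups) and varied little between pups, with a coefficient of variation of 13.3%. The other 13 alpha members averaged between 1.17 TPM (Pcdha8) and 8.25 TPM (Pcdha2) over all 46 pups. Among the alpha members that were tested, Pcdha1, the first of the cluster, had the lowest mean, at 3.81 ± 1.72 TPM in LB, 2.94 ± 1.01 TPM in UPS and 2.41 ± 0.73 TPM in CTL pups. Pcdhac1, the other C-type alpha member, was far below Pcdhac2 at 3.72 ± 0.89 TPM in LB, 3.56 ± 0.94 TPM in UPS and 3.45 ± 0.89 TPM in CTL pups.

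The beta members were more even. Pcdhb9 was highest, with 13.4 ± 1.95 TPM in LB, 14.2 ± 2.04 TPM in UPS and 12.8 ± 2.09 TPM in CTL pups, followed by Pcdhb17 with a mean of 12.1 TPM over all pups. These neighbours in the order differed by less than the SD of Pcdhb9 within any rearing group. Pcdhb6 was the lowest beta member tested, at 3.42 ± 0.72 TPM in LB, 3.56 ± 0.63 TPM in UPS and 3.23 ± 0.68 TPM in CTL pups. Pcdhb1, the first beta gene, averaged 0.43 TPM and was below the limit for testing, as were Pcdhb4 and Pcdhb21. Pcdhb19 was listed at 0 in CTL male 7 and LB female 7, and lay between 3.28 and 6.45 TPM in the other 44 pups.

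In the gamma cluster a single member took a large share of the total in every pup, but not the same member. The leading gamma member held 135 to 216 TPM, which was 30.0% to 55.1% of the gamma sum. It was Pcdhgb8 in 29 pups, Pcdhga9 in 15, Pcdhga2 in LB female 8 and Pcdhgb1 in UPS female 6. Pcdhgb8, annotated on this assembly as a polymorphic pseudogene, had 135 to 210 TPM in the pups where it led and 2.59 to 27.6 TPM in the rest. It had the highest mean of the cluster, with a spread nearly as large, at 106 ± 94.3 TPM in LB, 109 ± 89.6 TPM in UPS and 134 ± 79.2 TPM in CTL pups. Pcdhga9 had 159 to 216 TPM where it led and 4.33 to 71.2 TPM elsewhere. Pcdhga2 reached 183 TPM and Pcdhgb1 174 TPM in the 1 pup each led, against at most 31.0 TPM and 49.8 TPM in the others.

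Each rearing group held pups led by either of the common members, a count that was not tested. Pcdhgb8 led in 9 of 16 LB, 9 of 15 UPS and 11 of 15 CTL pups, and Pcdhga9 in 6 LB, 5 UPS and 4 CTL pups. By sex, Pcdhgb8 led in 16 of 21 males and 13 of 25 females, and Pcdhga9 in 5 males and 10 females. A set of 5 gamma members, Pcdhga2, Pcdhgb1, Pcdhgb4, Pcdhga9 and Pcdhgb8, is annotated to end at base 37841870, while the other 17 end at base 37841873, and all 4 leading members belong to those 5. The summed level of the 5 was steady, at 229 ± 20.1 TPM in LB, 227 ± 20.2 TPM in UPS and 225 ± 15.3 TPM in CTL pups, a coefficient of variation of 8.09% over all pups. For single members it was 107% for Pcdhga9, 205% for Pcdhga2, 155% for Pcdhgb1 and 90.6% for Pcdhgb4, and Pcdhgb8 averaged 116 ± 87.0 TPM over the 46 pups. How the shared 3' exons were assigned among the members was not tested.

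**Figure D2:**
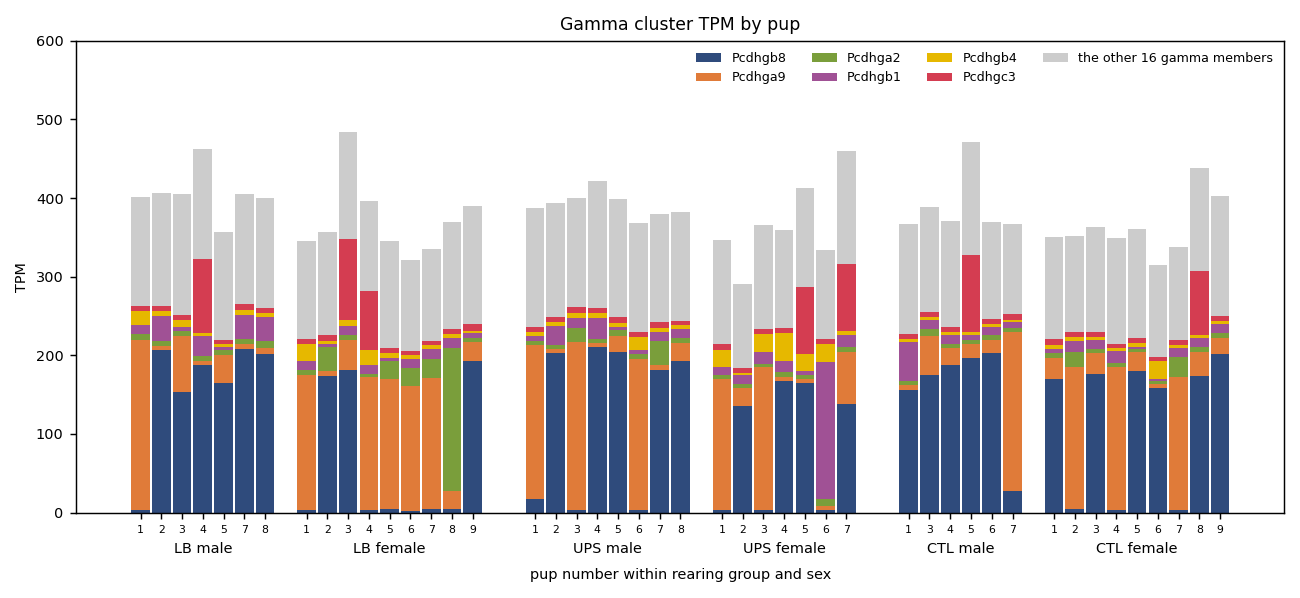
TPM of the gamma cluster in each pup (bars, stacked by member), by rearing group and sex; the bar height is the gamma sum. Each pup has 1 wide block of 135 to 216 TPM, mostly from Pcdhgb8 or Pcdhga9, and 7 pups have a further block of 74.1 to 103 TPM from Pcdhgc3.

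Pcdhgc3, a C-type member expressed in many kinds of brain cell, also split into separate levels. It lay between 4.83 and 8.09 TPM in 39 pups and between 74.1 and 103 TPM in 7, which were LB female 3, LB female 4, LB male 4, UPS female 5, UPS female 7, CTL female 8 and CTL male 5. No pup had a value between 8.09 and 74.1 TPM. The gamma sum was 397 to 484 TPM in those 7 pups and 291 to 422 TPM in the other 39, whereas the gamma sum without Pcdhgc3 was 323 to 381 TPM in the 7 and 285 to 416 TPM in the 39. The median of that sum without Pcdhgc3 was 368 TPM in the 7 and 360 TPM in the 39, so the other 21 members together were not lower where Pcdhgc3 was high.

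The remaining C-type members did not split. Pcdhgc5 was steady at 37.1 ± 4.38 TPM in LB, 39.5 ± 4.603 TPM in UPS and 38.7 ± 4.90 TPM in CTL pups, with a coefficient of variation of 12.1%. Pcdhgc4, needed in mice for the survival of certain neurons, had 10.7 ± 2.79 TPM in LB, 10.9 ± 2.55 TPM in UPS and 10.3 ± 1.98 TPM in CTL pups. Pcdhgb5 was the lowest gamma member tested, at 3.20 ± 0.53 TPM in LB, 3.26 ± 0.39 TPM in UPS and 3.31 ± 0.62 TPM in CTL pups.

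A widest gap between neighbouring pups of over 0.5 on the log2(TPM + 1) scale was found for 11 of the 58 members, 8 of them gamma and 3 beta. Besides those named above they were Pcdhga4, Pcdhga8, Pcdhb21 and Pcdhb22, and Pcdhb19 through its zeros. Pcdhga4 lay between 0.74 and 1.18 TPM in 12 pups and between 4.81 and 19.8 TPM in 34. Pcdhb22 was between 0.30 and 1.11 TPM in 9 pups and between 4.82 and 8.29 TPM in 37, and its neighbour Pcdhb21, which shares bases with it, was at or below 1.11 TPM in 23 pups and at 2.55 to 4.67 TPM in the other 23. No alpha member had such a gap. In the remaining 47 members the widest gap was at most 0.37.

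For LB against CTL, 3 members were higher in LB pups and none was lower. They were Pcdhac2, Pcdhb12 and Pcdhga10, 1 from each cluster, with log2 fold changes between 0.16 and 0.21. The test was limma on log2(TPM + 1) with the male and female differences averaged and Benjamini-Hochberg adjustment over 13244 genes, of which 7.54% were called at an adjusted p under 0.05 and 3.71% were called and higher in LB. Of the clustered protocadherins 52 passed the filter of a mean of at least 3 TPM in 1 rearing group, and 3 of 52 is close to the share of all genes that were higher in LB.

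Pcdhb12, at bases 37435621 to 37438654, lay between 7.06 and 10.2 TPM in LB pups (median 8.38), against 5.92 to 8.87 TPM in CTL pups (median 7.73). The ranges overlapped, but all 16 LB pups were above the mean of CTL pups of their sex on the log2 scale. The log2 fold change was 0.16 (SE 0.05, adjusted p = 0.028). Pcdhac2, at bases 37143503 to 37187657, lay between 24.3 and 35.3 TPM in LB pups (median 28.1), against 19.2 to 30.4 TPM in CTL pups (median 24.7). Its log2 fold change was 0.17 (SE 0.05, adjusted p = 0.035), with 15 of 16 LB pups above the CTL mean of their sex. Pcdhga10, at bases 37746993 to 37841873, lay between 6.14 and 10.99 TPM in LB pups (median 7.53), against 5.05 to 8.03 TPM in CTL pups (median 6.43). Its log2 fold change of 0.21 (SE 0.07, adjusted p = 0.0496) stood at the threshold, with 13 of 16 LB pups above. Leaving out single pups removed the call of Pcdhga10 in 22 of 31 fits, that of Pcdhac2 in 6 (without CTL male 1, 6 or 7 or LB male 2, 3 or 8) and that of Pcdhb12 in 1 (without CTL male 3). None of the 3 passed without the filter on low TPM or with rearing alone in the model, without a term for sex.

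The members as a whole were displaced upward in LB pups by a small amount. Of the 52 tested members 45 had a fold change above 0, against 52.2% of all genes, and their median was 0.11 against 0.01 over all genes. At an unadjusted p under 0.05 there were 19 of 52, all higher in LB. The background is 23.2% of all genes in either direction, and 1660 of 13244 genes at that p and higher in LB. The alpha cluster gave 13 of 13 above 0 with a median of 0.20 and 9 at an unadjusted p under 0.05, the beta cluster 18 of 19 with a median of 0.11, and the gamma cluster 14 of 20 with a median of 0.09. Alpha and gamma members share exons, so these counts are not of independent genes. Between 43 and 46 of the 52 members were above 0 in the fits that left out 1 pup.

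**Figure D3:**
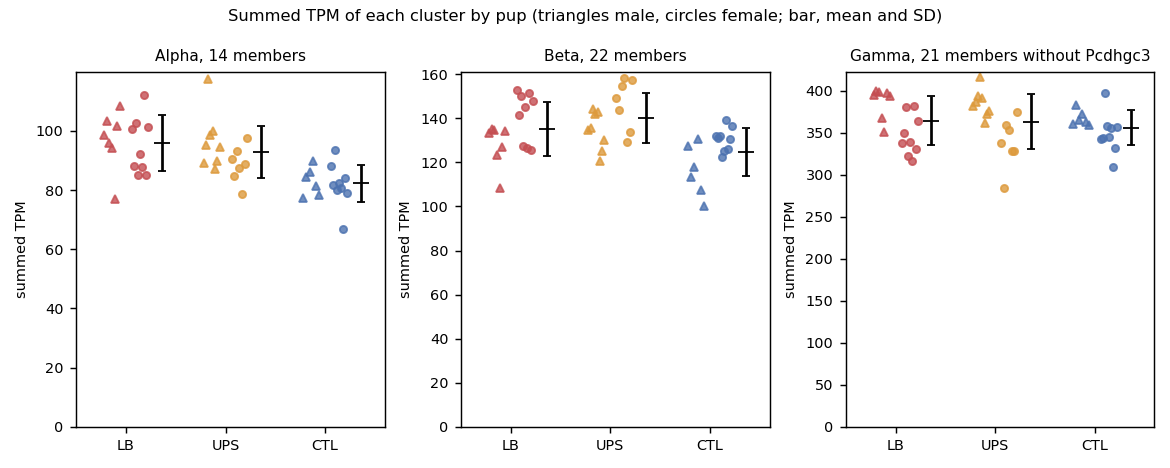
Summed TPM of the 14 alpha, the 22 beta and 21 gamma members (Pcdhgc3 left off) by pup for LB, UPS and CTL, with the mean and SD beside each group. LB and UPS pups average 95.9 and 92.9 TPM in the alpha sum and 135 and 140 TPM in the beta sum, against 82.3 and 125 TPM in CTL pups, with overlapping ranges.

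By sum, the alpha cluster covered 77.1 to 112 TPM in LB pups against 66.9 to 93.5 TPM in CTL pups, and the beta cluster 109 to 153 TPM in LB pups against 100 to 139 TPM in CTL pups. The gamma sum without Pcdhgc3 differed less, at 364 ± 29.2 TPM in LB pups and 356 ± 20.9 TPM in CTL pups. The groups overlapped in all of these sums. Of the 5 C-type members only Pcdhac2 passed the test in LB against CTL. The log2 fold changes of the other 4 were 0.09 for Pcdhac1 (95% interval -0.08 to 0.25), 0.20 for Pcdhgc3 (-0.76 to 1.17), 0.08 for Pcdhgc4 (-0.10 to 0.27) and -0.06 for Pcdhgc5 (-0.17 to 0.04). The widest interval of any tested member belonged to Pcdhgb8, at -1.01 (-2.58 to 0.55).

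For UPS against CTL, 7 members were higher in UPS pups and none was lower. They were the beta members Pcdhb7, Pcdhb9 and Pcdhb16, the alpha member Pcdha4 and the gamma members Pcdhga3, Pcdhga10 and Pcdhgb4. All are alternate members. With the pups numbered 9 counted as male, Pcdhb9 and Pcdhga10 did not pass and the C-type member Pcdhac2 did. Over all 13244 genes 10% were called in this comparison and 5.59% were called and higher in UPS. The CTL pups are the same ones as in the comparison with LB, so the comparisons are not independent of each other.

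**Figure D4:**
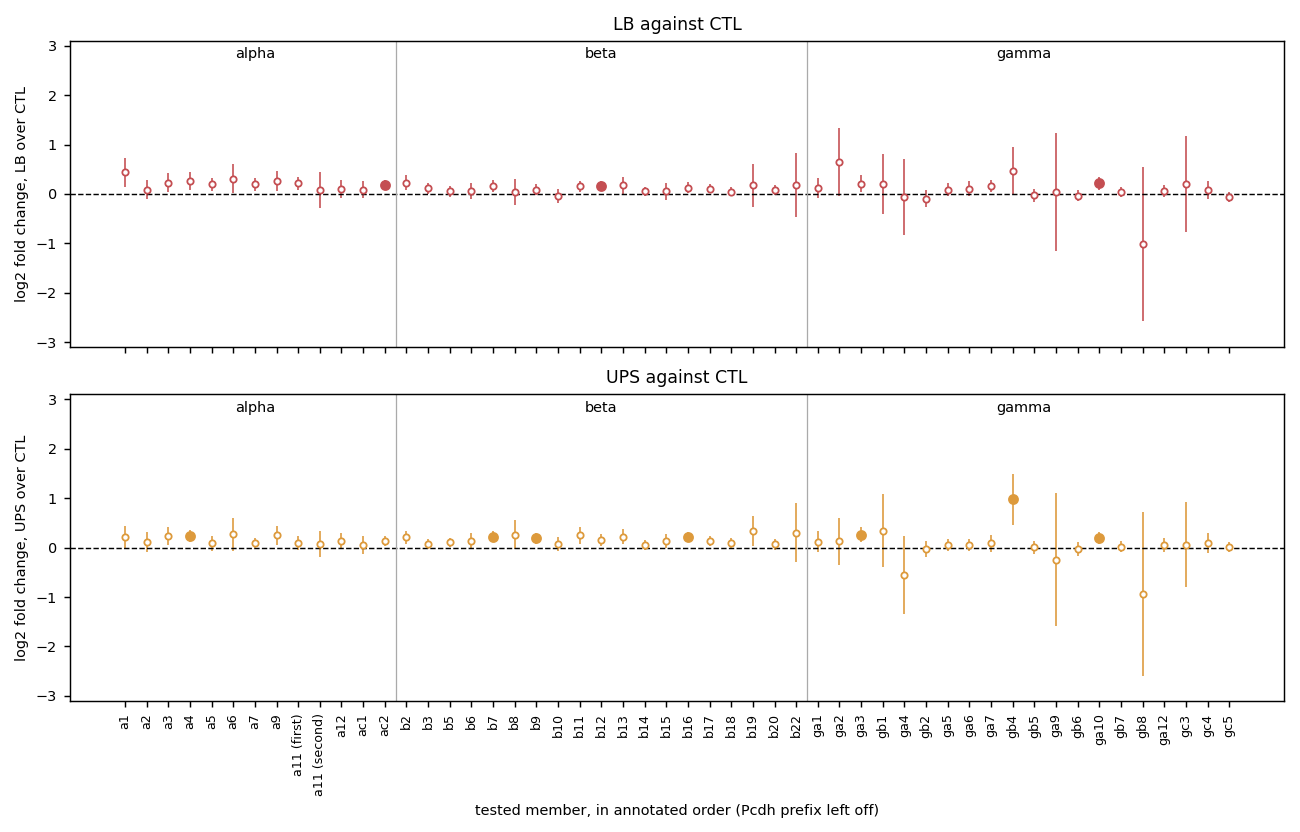
Log2 fold change of log2(TPM + 1) with its 95% interval for the 52 tested members in annotated order, LB over CTL (upper) and UPS over CTL (lower); filled points passed at an adjusted p under 0.05 and the dashed line is the median of all genes. Most points lie above the line, with 45 and 47 of 52 above 0, and the widest intervals belong to gamma members that split into levels.

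Pcdhb7 had the smallest p-value, at 7.22 to 11.4 TPM in UPS pups (median 8.85), against 6.14 to 9.22 TPM in CTL pups (median 7.53). Its log2 fold change was 0.22 (SE 0.05, adjusted p = 0.012), and 15 of 15 UPS pups were above the CTL mean of their sex. Pcdhb16 lay at 7.57 to 10.5 TPM in UPS pups (median 8.61), against 5.56 to 8.99 TPM in CTL pups (median 7.74), a log2 fold change of 0.21 (SE 0.06, adjusted p = 0.015). Pcdhb9 lay at 11.8 to 19.6 TPM in UPS pups (median 13.9), against 10.2 to 16.8 TPM in CTL pups (median 12.8), a change of 0.18 (SE 0.05, adjusted p = 0.031). These 3 rest on exons of their own, at bases 37341702 to 37345202, 37477814 to 37483038 and 37400855 to 37403909, so no shared exon enters their values. In each, 14 or 15 of the 15 UPS pups were above the CTL mean of their sex, while the ranges overlapped.

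Pcdha4 lay at 5.62 to 8.32 TPM in UPS pups (median 6.21), against 4.02 to 7.11 TPM in CTL pups (median 5.51), a log2 fold change of 0.23 (SE 0.06, adjusted p = 0.019). Pcdhga3 lay at 4.90 to 9.39 TPM in UPS pups (median 7.29), against 4.37 to 7.64 TPM in CTL pups (median 5.08), a change of 0.26 (SE 0.08, adjusted p = 0.038). Pcdhga10 lay at 6.17 to 8.86 TPM in UPS pups (median 7.45), against 5.05 to 8.03 TPM in CTL pups (median 6.43), a change of 0.19 (SE 0.06, adjusted p = 0.046). In all 3 the lower end of the UPS range was above that of the CTL range. The calls of Pcdhb7, Pcdhb16, Pcdha4 and Pcdhgb4 held in all 30 fits that left out 1 pup, Pcdhb9 in 27 (not without CTL male 6, CTL male 7 or UPS male 3), Pcdhga3 in 18 and Pcdhga10 in 10. Other models kept fewer of them. With the sample number as a replicate block, only Pcdhb16 and Pcdhga10 of the called members still passed. With all 46 libraries in 1 fit, Pcdha4 and Pcdhga10 did not pass.

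Pcdhgb4 had the largest fold change of the called members, 0.98 (SE 0.27, adjusted p = 0.019), and its values fall into separate sets of pups. It lay between 17.1 and 20.6 TPM in 3 of 16 LB pups, between 17.1 and 36.7 TPM in 6 of 15 UPS pups, and at 22.9 TPM in 1 of 15 CTL pups. In the remaining pups it was at most 8.61 TPM in LB, 6.41 TPM in UPS and 5.50 TPM in CTL. Pcdhgb4 is 1 of the 5 gamma members with the earlier annotated end, and 8 of the 10 pups at the high level were female. Of the UPS pups 14 of 15 were above the CTL mean of their sex on the log2 scale, and the medians were 6.38 TPM in UPS and 4.03 TPM in CTL pups.

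**Figure D5:**
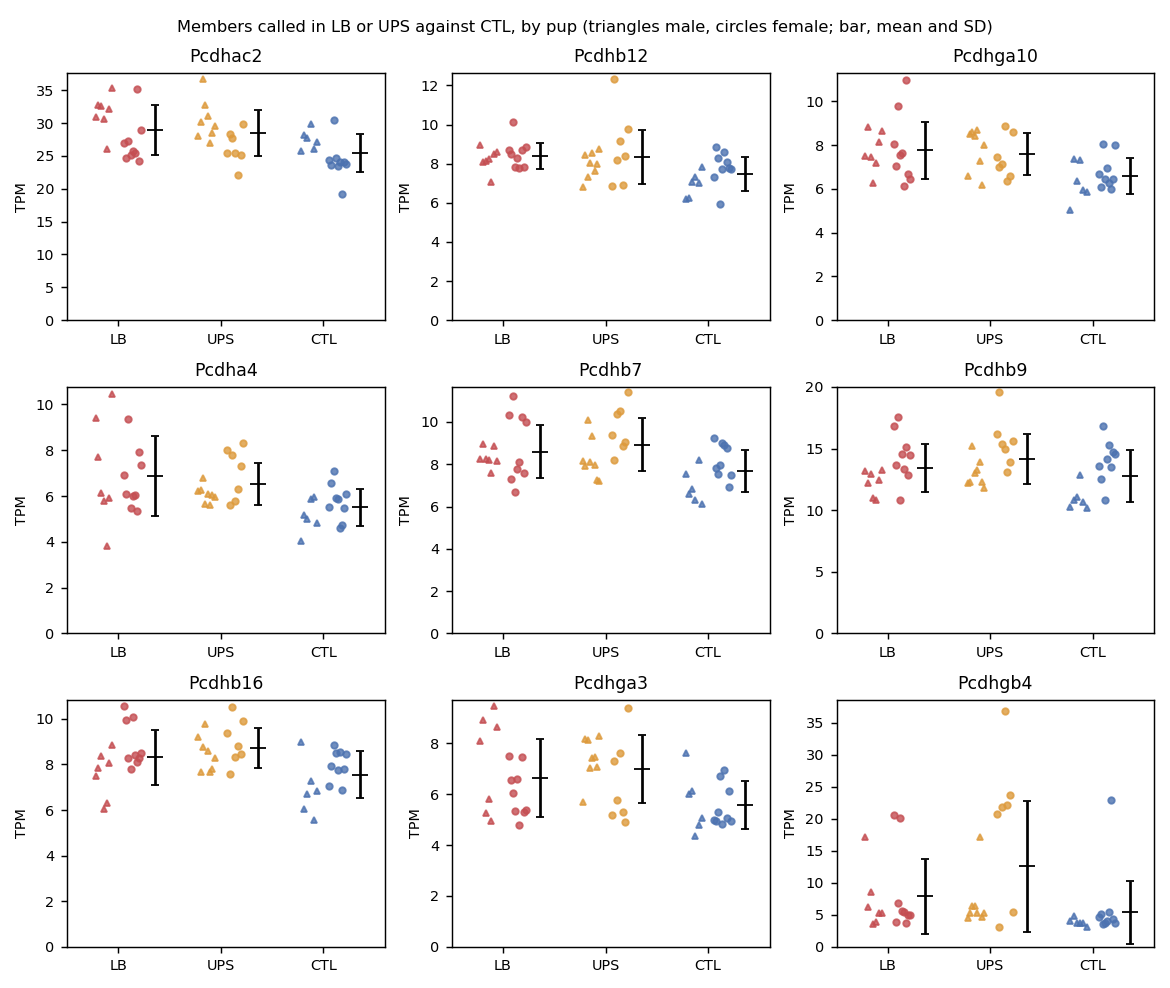
TPM of the 9 members called in LB or UPS against CTL, by pup (triangles male, circles female), with the mean and SD of each rearing group. The groups overlap for every member, and Pcdhgb4 shows 10 pups at 17.1 to 36.7 TPM above the rest.

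Across the cluster, 47 of 52 tested members had a fold change above 0 in UPS against CTL, where the background is 50% of all genes. Their median was 0.12, against a median of all genes that rounds to 0. At an unadjusted p under 0.05 there were 17 of 52, all higher in UPS. The background is 27.0% of all genes in either direction, and 1841 of 13244 genes at that p and higher in UPS. Here the beta cluster led, with 19 of 19 above 0, a median of 0.15 and 10 at an unadjusted p under 0.05, followed by the alpha cluster with 13 of 13 above 0 and a median of 0.13. The gamma cluster gave 15 of 20 above 0 with a median of 0.05. With the pups numbered 9 as female, the C-type members did not pass: Pcdhac2 had a log2 fold change of 0.13 (0.03 to 0.23, adjusted p = 0.089), Pcdhac1 0.06 (-0.13 to 0.24), Pcdhgc3 0.05 (-0.80 to 0.91), Pcdhgc4 0.09 (-0.12 to 0.29) and Pcdhgc5 0.01 (-0.09 to 0.10). Without UPS female 2, the library that stood apart, 8 members were called, the 7 and Pcdhb11, and without UPS female 1, whose labels disagree, 6 were called, with Pcdhga10 lost. With rearing alone in the model none passed.

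Between the adversity groups no member passed. For LB against UPS, limma called 0 of 52 members, and 0 had an unadjusted p under 0.05, against backgrounds of 0.0453% of all genes called and 12.7% at an unadjusted p under 0.05. The median fold change of the members was -0.00087, with 26 above 0 and 26 below. The clusters leaned apart, with 11 of 13 alpha members above 0 and 15 of 19 beta members below 0, by medians of 0.04 and -0.06. The smallest p-values were those of Pcdhgb4 in the gamma cluster (-0.51, 95% interval -1.06 to 0.05), Pcdha5 in the alpha cluster (0.12, -0.01 to 0.24) and Pcdhb10 in the beta cluster (-0.11, -0.24 to 0.02). Of members called against CTL, the intervals between LB and UPS were -0.10 to 0.12 for Pcdhb12, -0.06 to 0.14 for Pcdhac2, -0.11 to 0.16 for Pcdhga10 and -0.18 to 0.06 for Pcdhb7.

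The effect of rearing was also compared between the sexes. In the interaction of rearing and sex limma called 0 members and 0 genes (0% of all genes) for LB against CTL and likewise for UPS against CTL. At an unadjusted p under 0.05 there were 2 of 52 members and 293 of 13244 genes for LB against CTL. For UPS against CTL there were 0 of 52 members and 488 of 13244 genes. The 2 were Pcdhgc4 and Pcdhb22, whose pups split into levels. The male change minus the female change was 0.54 (SE 0.19) for Pcdhgc4 and -1.35 (SE 0.66) for Pcdhb22. Neither passed after adjustment, and both were picked for their interaction, so the opposite directions of the sexes are only descriptions. Pcdhgc4 averaged higher in LB than in CTL males and lower in LB than in CTL females, and Pcdhb22 the reverse.

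Males and females differed in more members than any pair of rearing groups, in a test on all 46 libraries. It called 21 of 52 members, a smaller share than the 50.1% of all genes. Only the called beta members shared a direction: 9 were called and all were lower in males. The other clusters were mixed: of 7 gamma members called 5 were higher in males, and of 5 alpha members 3 were. Of all genes called, 3646 of 6638 were lower in males. Among the C-type members, males were higher than females in Pcdhgc5 (log2 difference 0.20, SE 0.04, adjusted p = 7.1e-05) and Pcdhac2 (0.20, SE 0.04, adjusted p = 0.00011), and lower in Pcdhac1 (-0.17, SE 0.07, adjusted p = 0.047). The beta sum was 127 ± 12.1 TPM in males and 139 ± 11.4 TPM in females, while the gamma sum without Pcdhgc3 was 380 ± 17.1 TPM in males and 345 ± 24.7 TPM in females. CTL female 9 and LB female 9 stood above the other females of their groups in Pcdhac2, at 30.4 and 35.2 TPM. Whether libraries of the sexes were made together is not stated, and its part in these differences was not tested.

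The alpha and beta sums of LB and UPS pups averaged above those of CTL pups within each sex. In males the beta sum averaged 128 ± 9.64 TPM in LB and 134 ± 8.64 TPM in UPS pups, against 116 ± 11.7 TPM in CTL pups. In females it averaged 141 ± 11.4 TPM in LB and 147 ± 11.5 TPM in UPS pups, against 131 ± 5.48 TPM in CTL pups. The alpha sum in males averaged 97.0 TPM in LB and 96.5 TPM in UPS pups, against 82.9 TPM in CTL pups, and in females 95.0 TPM in LB and 88.7 TPM in UPS pups, against 81.8 TPM in CTL pups. Only the gamma sum without Pcdhgc3 went another way in females, at 347 TPM in LB and 338 TPM in UPS pups, against 349 TPM in CTL pups.

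Members varied together only weakly from pup to pup. After each rearing and sex group was centred on its mean, the median Pearson correlation over 46 pups was 0.09 for the pairs of alpha members, 0.17 for beta and 0.08 for gamma. The cluster sums moved together more clearly, with r = 0.68 between alpha and beta, 0.70 between alpha and gamma and 0.58 between beta and gamma (gamma without Pcdhgc3). The most opposed pair was Pcdhga9 and Pcdhgb8, the usual leading members, with r = -0.76. Among members that do not overlap, Pcdhac2 and Pcdhga10, both higher in LB pups, had r = 0.63. All values of a pup come from 1 library and share its depth and cell makeup, so these correlations are descriptions.

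Genes known to control the clusters were taken as a list of 26, of which 25 were tested. For LB against CTL, 2 were higher and none was lower, where 3.71% of all genes were called and higher. Tet1, which oxidises methylated DNA, averaged 33.0 ± 4.69 TPM in LB and 26.4 ± 3.19 TPM in CTL pups, a log2 fold change of 0.31 (SE 0.07, adjusted p = 0.0059). Dnmt3a, a DNA methyltransferase, averaged 114 ± 21.2 TPM in LB and 87.9 ± 15.5 TPM in CTL pups, a change of 0.36 (SE 0.09, adjusted p = 0.015). For UPS against CTL, 8 were higher and none was lower, where 5.59% of all genes were called and higher. The smallest p-values were those of Tet1 (34.3 ± 3.76 TPM in UPS and 26.4 ± 3.19 TPM in CTL pups, log2 fold change 0.38), Wapl, which releases cohesin (0.17), and Stag2, a cohesin subunit (0.20). Ctcf itself passed in neither comparison, with log2 fold changes of -0.03 in LB and 0.02 in UPS. The list's median was 0.03 in LB and 0.10 in UPS, against 0.01 and a value that rounds to 0 over all genes.

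Of 25 partners and effectors, among them the WAVE complex that binds the cytoplasmic end of some protocadherins and the secretase subunits that cut them, none passed in LB against CTL, and 3 were higher in UPS than in CTL pups, with medians of 0.03 in LB and 0.05 in UPS. Those 3 were the kinase Fyn (log2 fold change 0.11), the WAVE complex subunit Abi1 (0.30) and the secretase subunit Aph1b (0.13). All 12 non-clustered protocadherins, which lie outside the clusters, were tested and none passed against CTL in either group. Their medians were 0.03 in LB and 0.05 in UPS. Of 44 genes within 500 kb of the members or between them, 8 were tested, none passed against CTL, and the medians were -0.01 in LB and 0.0011 in UPS. Pcdh1, a non-clustered protocadherin inside that window, averaged 276 TPM in LB, 274 TPM in UPS and 276 TPM in CTL pups.

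Markers of some other cell types and states also differed with rearing. Markers of immature neurons, a list of 4 genes, summed to 301 to 434 TPM in LB (median 388) and 295 to 505 TPM in UPS pups (median 374), against 234 to 425 TPM in CTL pups (median 326). In each adversity group 3 of the 4 were higher than in CTL, Dcx by 0.39 in LB and 0.38 in UPS on the log2 scale. The 8 markers of mature oligodendrocytes summed to 438 to 2291 TPM in LB (median 1194) and 828.7 to 2781 TPM in UPS pups (median 1738), against 1127 to 3497 TPM in CTL pups (median 2248), and 8 of 8 were lower in LB and 7 of 8 in UPS. No defining marker of either list was at 0 in every library. With rearing and sex centred, the sum of the immature neuron markers had a correlation over 46 pups of 0.62 with the alpha sum, 0.61 with the beta sum and 0.44 with the gamma sum without Pcdhgc3, and that of the oligodendrocyte markers -0.54, -0.26 and -0.21. The 5 choroid plexus markers summed to 8.29 to 2564 TPM in LB, 15.2 to 1405 TPM in UPS and 10.1 to 669 TPM in CTL pups, with correlations of 0.06, -0.11 and 0.17 with the same sums. Their part in the higher levels of the members was not tested.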

How the data were processed

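Expression of the clustered protocadherins was taken from gene-level TPM of 46 hippocampal libraries. The authors trimmed reads to a minimum length of 45 bases, aligned them to mm10 with HISAT2, and deposited TPM made with StringTie; no source used here gives tool versions or the annotation release. They also deposited tables of their own DESeq2 fold changes and p-values, which were not used. TPM holds no depth; the labels state an average of 73000000 reads per library. One gene with text in a cell was left out.

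Genes were kept where any rearing group averaged 3 TPM or more, which left 13244. Their log2(TPM + 1) values entered limma 3.58.1 (R 4.3.3) with a variance trend, 4 means of rearing and sex per pair of rearings, and the Benjamini-Hochberg method at 0.05. The male against female test used all 46 libraries. Fold changes on this scale understate changes of low genes. Coordinates and exon overlaps come from GENCODE for GRCm38. The fits were tested on simulated data. Named members were all that passed, the C-type members and, per cluster, the highest, the lowest tested and the smallest p; named list genes were those that passed or the 3 smallest p where over 6 did. Members and lists were chosen with earlier results of these data known. Alternatives were other pseudocounts, filters, scaling, models, sex assignments and each pup left out.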

Additional observations from a re-analysis of the deposited data

Results flagged for a closer look

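Among 96 combinations of a reported quantity with a rearing and sex group of 6 to 9 pups, 15 had a highest pup far from the others by Dixon's test at 95%, and chance alone flags about 1 in 20. Pcdhgc3 gave 3 of them, at 81.3 TPM in CTL female 8, 98.6 TPM in CTL male 5 and 94.0 TPM in LB male 4, where the next pups had 8.09, 7.22 and 7.59 TPM. The gamma cluster sum was 484 TPM in LB female 3 and 471 TPM in CTL male 5, which are among the 7 pups with a high Pcdhgc3. Pcdhgb4 stood apart at 17.1 TPM in LB male 1, 17.1 TPM in UPS male 6 and 22.9 TPM in CTL female 6.

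Pups numbered 9 were flagged as highest in Pcdhac2, at 35.2 TPM in LB female 9 and 30.4 TPM in CTL female 9, and in Pcdhgc5 at 49.3 TPM in CTL female 9. Both genes were higher in males than in females. The remaining pups far from their groups were LB female 3 with 10.2 TPM of Pcdhb12, CTL male 5 with 12.8 TPM of Pcdhb9, UPS female 4 with 6.52 TPM of Pcdhac1 and UPS male 3 with an alpha cluster sum of 117 TPM.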

How the results depend on the processing

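The calls depended on the processing more than the directions did: under the 9 other settings at least 45 of the members tested were above 0 in LB against CTL and at least 46 in UPS against CTL. Without a filter on low TPM, 630 genes and 1 member (Pcdhb1) were called in LB against CTL, and 879 genes and 4 members in UPS against CTL. With rearing alone in the model it was 579 genes and 0 members, 254 genes and 0 members, and 1 gene for LB against UPS. All 46 libraries in 1 fit gave 24 genes for LB against UPS. With the sample number as a replicate block, 75 genes and 0 members were called in LB against CTL, 551 genes and 3 members in UPS against CTL, and 0 genes and 0 members in LB against UPS. Across rearing groups the numbers showed little pairing of pups of the same sex. Same-numbered pups had a correlation over 0.1 in 5 of 41 pairs, and 6 correlated best with their own number. Whether same-numbered males and females within a rearing group were alike was not tested. The cause of the differences between settings was not tested. Leaving out single pups gave 677 to 1581 genes and 1 to 9 members in LB against CTL (9 without LB male 5, 6 without CTL male 5 or LB female 6, 1 without CTL male 1, 6 or 7 or LB male 2 or 8), 913 to 2169 genes and 4 to 9 members in UPS against CTL (9 without UPS female 5, 4 without CTL male 6 or 7 or UPS male 3), and 4 to 22 genes and 0 members in LB against UPS. Among the named members, the changes that turned sign in this way were those of Pcdhgc3 in LB (-0.054 to 0.52) and in UPS (-0.15 to 0.37), Pcdhgc5 in UPS (-0.0099 to 0.031) and Pcdhac1 in UPS (-0.0026 to 0.093). Between male and female, 15 members were called without a filter, 22 with the pups numbered 9 as male and 23 without them, the last chosen after seeing the data. TPM holds no read depth, so the counting error behind low members is unknown.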

Other observations

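The 6 members below the limit for testing were fitted without a filter. Pcdhb1, the first beta gene, was the only one of them called, with 0.53 ± 0.23 TPM in LB and 0.29 ± 0.16 TPM in CTL pups (SD, n = 16 and 15), a log2 fold change of 0.24 (SE 0.06, adjusted p = 0.023 by limma without a filter) and 16 of 16 LB pups above the CTL mean of their sex. It was singled out after its values were seen. In UPS pups it averaged 0.45 ± 0.33 TPM, a change of 0.18 with an adjusted p of 0.18. Pcdha8, Pcdhb4, Pcdhb21, Pcdhga8 and Pcdhga11 did not pass in either comparison, with changes between -0.34 (Pcdhga8) and 0.16 (Pcdhb21) in LB and between -0.09 (Pcdhga8) and 0.37 (Pcdhb21) in UPS. Pcdhga8 was at 5.18 to 8.63 TPM in 6 pups and at most 0.59 TPM in the other 40.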
